A study of Homo sapiens with 18 samples.

Results

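The genes described are the cyclins that act in the G1 phase of the cell cycle, the kinases they switch on and their inhibitors: CCND1, CCND2, CCND3, CCNE1, CCNE2, CDK2, CDK4, CDK6, CDKN1B and CDKN2C. They were taken by gene symbol from the matrix of counts, 10 of its 62754 genes. Of the 10, 9 were among the 15167 genes with enough counts to be tested, and CCND2 was not. The RNA came from EA.hy926, an endothelial line made by fusing human umbilical vein endothelial cells with the A549 lung carcinoma line, grown in 10% serum and kept in 0.5% serum overnight before the time of treatment. Mock cells received only the transfection reagent, siNT cells 10 nM of non-targeting siRNA, and siELMO1 cells 10 nM of a pool of 3 siRNAs against ELMO1, a partner of DOCK proteins in cell motility and engulfment. RNA was taken at 48 h from transfection (called 0 h) or when 24 h more had passed with 1 μg/ml poly(I:C), a double-stranded RNA that mimics a virus, with 3 libraries in each of the 6 conditions. No library had 24 h of culture without poly(I:C), so the change over 24 h and the effect of poly(I:C) cannot be told apart. The knockdown was transient and made with 1 pool, so the siRNAs in it cannot be told apart.

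Levels are given in CPM, counts scaled to a common library total with TMM factors, and tests are edgeR's quasi-likelihood test over all 18 libraries with Benjamini-Hochberg adjustment over 15167 genes. A gene was called at an adjusted p under 0.05. ELMO1 itself measured 3.04, 2.99 and 3.03 CPM in Mock, 2.85, 2.66 and 3.32 in siNT and 0.299, 0.301 and 0.419 in siELMO1 at 0 h, so each siELMO1 library lay far below every control library (log2 fold change −3.11, SE 0.28, adjusted p = 2.74e-08 against siNT). At 24 h ELMO1 was again lower in siELMO1 than in siNT (log2 fold change −3.64, SE 0.29, adjusted p = 1.43e-08). Library totals ran from 40374756 to 73850946 counts. In 2 of the 3 siELMO1 libraries at 0 h, replicates 2 and 3, mitochondrially encoded genes took 4.02% and 3.95% of the counts, against 1.31% to 2.42% in the other 16. They were also the libraries with the fewest counts. Many fold changes of siELMO1 at 0 h are also given without both, while shares within families and ratios rest on all 3 libraries. In the fit without both, the lone siELMO1 library at 0 h was assumed to vary like the other groups. Of 14 endothelial markers 12 had a mean of at least 1 CPM, while CLDN5 and EMCN were at or near 0. The summed level of those 14 was 3254 to 3447 CPM in siELMO1 and 2371 to 2561 CPM in the controls at 0 h, and 3001 to 3616 CPM and 1750 to 2515 CPM at 24 h. Single markers did not all follow the sum, with PECAM1 at a mean of 225 CPM in siELMO1 and 314 CPM in siNT at 0 h. Of 6 epithelial markers 2 had a mean of at least 1 CPM, KRT8 and KRT18, with CDH1 at 0. So did 1 of 6 fibroblast or mural markers (ACTA2) and 1 of 4 leukocyte markers (LYZ). The summed level of the 6 epithelial markers was 978 to 1088 CPM in siELMO1 and 766 to 818 CPM in the controls at 0 h. At 24 h it was 534 to 628 CPM and 484 to 546 CPM. The part of these sums in the results was not tested. In bulk RNA, fewer cells of a kind and less RNA per cell cannot be told apart. The paper reports massive death of siNT cells under poly(I:C), with much less in Mock cells and in the knockdown. The part of this cell death in the siNT levels after poly(I:C), and in every comparison that uses them, was not tested.

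A cell that leaves G0 or the last division commits to DNA synthesis in late G1. D-type cyclins, made in response to growth factors, pair with CDK4 and CDK6 and begin the phosphorylation of the retinoblastoma protein. E-type cyclins pair with CDK2, complete that phosphorylation and free the E2F factors that drive the genes of S phase. CDKN1B encodes p27, which binds and blocks cyclin E-CDK2 and can also help cyclin D-CDK4 complexes to assemble, and CDKN2C encodes p18, an INK4 protein that binds CDK4 and CDK6 themselves. Much of the control of these proteins lies in their degradation and phosphorylation, which mRNA levels do not show.

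Promoter stretches of 3 genes are shown because these genes span the range of responses: CDKN2C fell most against Mock at 0 h, CDKN1B differed between the control transfections, and CDK4 was the most abundant kinase. Each is the 250 bases before a start in RefSeq's GRCh38.p14 table, read along the strand of the gene. Capitals mark TTCCCGC or TTGGCGC on either strand, the letters of a core E2F site, and the palindrome CACGTG, an E-box. The CDKN2C stretch is chr1:50968456-50968705 (plus strand), CDKN1B chr12:12717118-12717367 (plus strand) and CDK4 chr12:57752311-57752560 (minus strand).
CDKN2C: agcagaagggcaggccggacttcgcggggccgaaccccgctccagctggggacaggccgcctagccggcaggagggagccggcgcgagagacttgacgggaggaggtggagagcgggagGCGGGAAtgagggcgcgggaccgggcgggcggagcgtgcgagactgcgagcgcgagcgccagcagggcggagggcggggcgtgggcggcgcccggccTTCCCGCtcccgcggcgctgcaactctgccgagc
CDKN1B: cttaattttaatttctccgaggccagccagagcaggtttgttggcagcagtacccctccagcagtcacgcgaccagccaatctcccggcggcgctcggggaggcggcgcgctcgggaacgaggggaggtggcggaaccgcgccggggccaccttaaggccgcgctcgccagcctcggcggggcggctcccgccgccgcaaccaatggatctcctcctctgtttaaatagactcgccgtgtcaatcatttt
CDK4: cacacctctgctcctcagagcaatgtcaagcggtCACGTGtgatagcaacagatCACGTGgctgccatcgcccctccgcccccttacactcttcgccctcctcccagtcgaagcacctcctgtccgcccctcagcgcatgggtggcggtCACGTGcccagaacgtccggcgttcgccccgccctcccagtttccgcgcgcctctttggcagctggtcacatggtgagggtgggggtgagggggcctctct

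The CDKN2C stretch held 2 E2F matches, which began at −131 and −34 from the start, on opposite strands. None of the members' other windows held these letters. Windows were found for 6 of the 10 members, and CCND1, CCND2, CCNE2 and CDK2 had none to search. The letters were in 7.81% of 35116 RefSeq windows of the same length. The CDK4 stretch held 3 E-boxes, the first of them at −216 and the last at −101, and 6.34% of all windows held at least 1. Windows at other starts of CDKN2C, not shown, held 1 E-box each, at −220 and −69. The CDKN1B stretch held neither the E2F letters nor an E-box. The cAMP response letters TGACGTCA and the CHR letters TTTGAA, also searched on both strands, were in none of the members' windows and in 1.65% and 13.3% of all windows. The GC box GGGCGG was in each of the 3 stretches shown and in 42.6% of all windows. A match describes letters and does not show that a factor binds.

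Per transcript length, CCND1 and CDK4 stood far above the other members. In Mock at 0 h the level in TPM (a measure per transcript length, computed here from the counts of each transcript and scaled to the same sum in every library) was 579.7 ± 12.4 for CCND1 and 432 ± 12.4 for CDK4 (SD, n = 3). CDK2 followed with 115 ± 5.85 TPM and CDKN1B with 44.7 ± 2.42 TPM. CCND3, CCNE1, CDKN2C and CCNE2 lay between 12.8 ± 0.733 and 27.3 ± 2.06 TPM, and CDK6 was the lowest tested member with 8.29 ± 0.275 TPM. CCND2 was at the floor of detection. It had 37 counts over all 18 libraries and at most 0.140 CPM in any, where a count of 0 allows 0.0384 to 0.0753 CPM depending on the library. This limit covers counting error only, and StringTie can turn a read pair into more than 1 count, which makes the true limit higher.

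**Figure D1:**
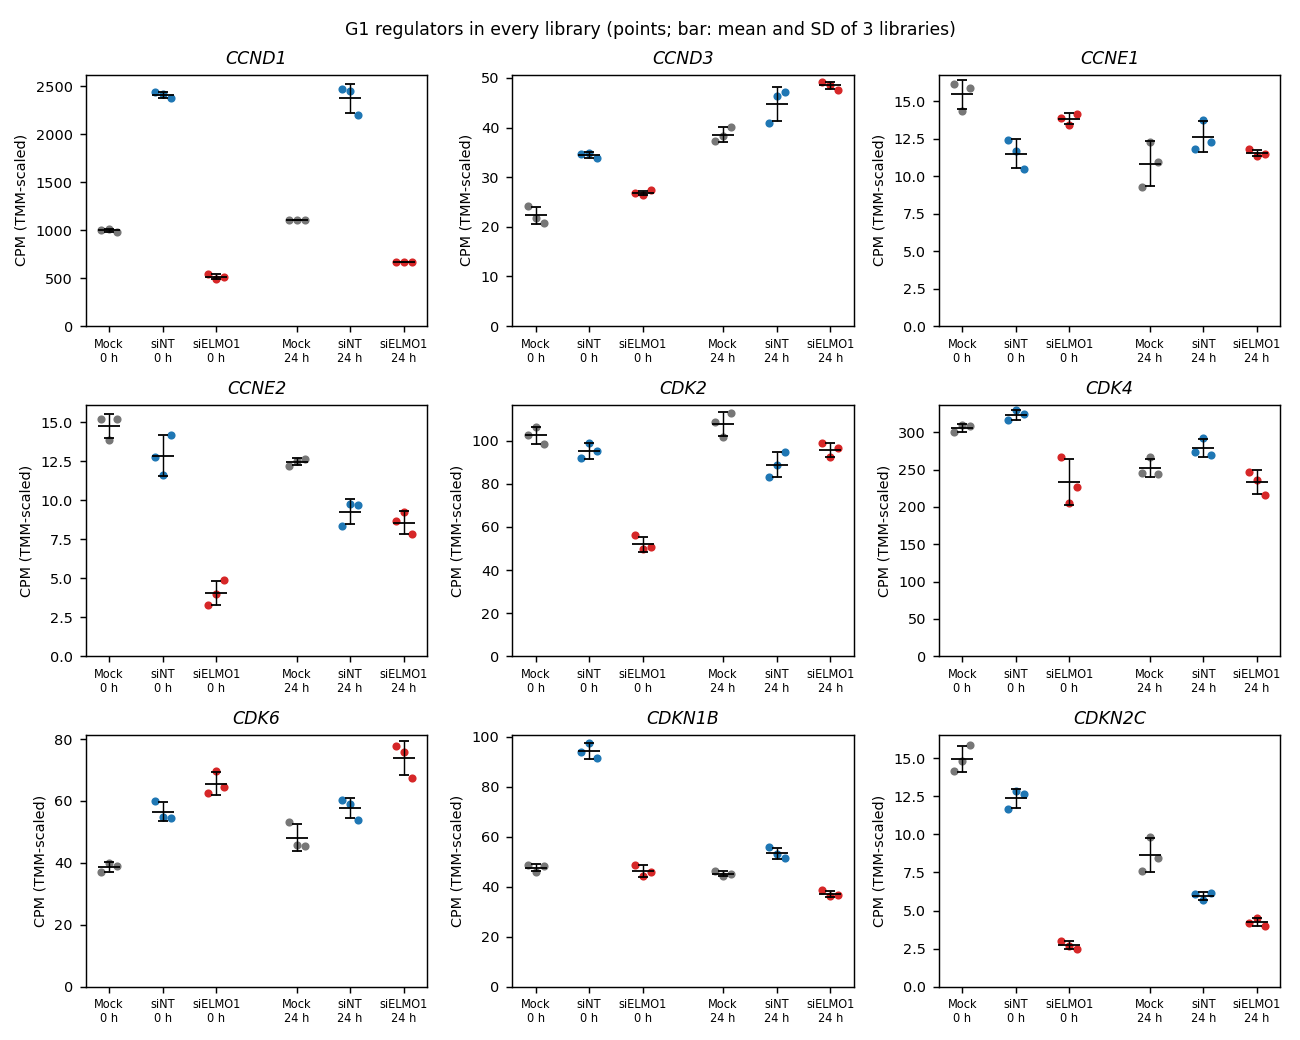
Level of each tested member in CPM (vertical axis, from 0) in each library of the 6 conditions; points are libraries, the bar is the mean and the whiskers the SD of 3. CCND1 lies between 496 and 540 CPM in siELMO1 at 0 h against 2375 to 2441 CPM in siNT, and CDKN2C and CCNE2 are lowest in siELMO1 at 0 h.

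Before poly(I:C), all 9 tested members differed between siELMO1 and siNT, with 7 lower and 2 higher. CCND1, CDKN2C and CCNE2 fell most, CDKN1B and CDK2 by less, and only CCNE1 and CDK6 were higher in siELMO1. The background of this comparison was wide: 31.3% of the 15167 genes were called higher and 31.3% lower. The members lower were 7 of 9, a larger share than among all genes. Since the members were chosen with earlier results of these data known, that share is only a description. The median log2 fold change of the 9 was −0.87, against 0.00093 over all genes tested. Without the 2 libraries of high mitochondrial share 7 of the 9 were called. The control transfections differed from each other too, so siELMO1 was also set against Mock. There 5 members were lower and 2 higher, where 22.4% and 27.9% of all genes were called, and CCNE1 and CDKN1B did not pass the test. With library totals instead of TMM factors the split of all genes there moved from 4225 higher of 7618 called to 3274 of 7463. Both sets of comparisons share the siELMO1 libraries.

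CCND1, the D-type cyclin that links growth factor signals to CDK4, was the most abundant member, highest in siNT and lowest in siELMO1. At 0 h it measured 999.7, 1014 and 984 CPM in Mock. It was 2441, 2423 and 2375 CPM in siNT. In siELMO1 it was 540.4, 496 and 517 CPM. The 3 transfections did not overlap, and Mock lay between the others. CCND1 was 4.66-fold lower in siELMO1 than in siNT (log2 fold change −2.22, SE 0.045, adjusted p = 1.07e-15) and 1.93-fold lower than in Mock (log2 fold change −0.95, SE 0.044, adjusted p = 5.93e-12). The siNT cells in turn had 2.42-fold more than Mock (log2 fold change 1.27, SE 0.044, adjusted p = 4.29e-13), so the size of the fall depended on the control chosen. Without the 2 libraries of high mitochondrial share the log2 fold change was −2.15 against siNT and −0.92 against Mock.

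At 24 h CCND1 was 1111, 1105 and 1106 CPM in Mock, 2470.4, 2450.5 and 2204 in siNT and 669, 664 and 673 in siELMO1. The order of the transfections was the same as at 0 h, again with no overlap. The differences were −1.83 (SE 0.045, adjusted p = 2.30e-14) on the log2 scale against siNT and −0.73 (SE 0.044, adjusted p = 8.97e-10) against Mock. Over the 24 h CCND1 rose 1.29-fold in siELMO1 (log2 fold change 0.37, SE 0.043, adjusted p = 1.23e-06, or 0.30 on the log2 scale without those 2 libraries). In siNT the interval of its log2 change was −0.11 to 0.062. In Mock it rose 1.11-fold (log2 fold change 0.15, SE 0.043, adjusted p = 0.00679), a call that was lost with library totals instead of TMM factors (log2 fold change 0.027, adjusted p = 0.642), with upper-quartile factors or no filter, and without Mock replicate 1 or 3 at 0 h or replicate 1 at 24 h, with adjusted p from 0.0649 to 0.0953 in those 3. Over the 6 conditions the order from the highest was siNT at 0 h and 24 h, whose libraries overlapped, then Mock at 24 h, Mock at 0 h, siELMO1 at 24 h and siELMO1 at 0 h, each apart from the next.

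CCND3, a D-type cyclin prominent in blood cells and in differentiating cells, took another course. It was 24.2, 21.9 and 20.8 CPM in Mock, 34.8, 34.9 and 33.9 in siNT and 26.7, 26.4 and 27.3 in siELMO1 at 0 h. The siELMO1 libraries lay between the controls, below every siNT library and above every Mock library. CCND3 was 1.29-fold lower than in siNT (log2 fold change −0.36, SE 0.061, adjusted p = 5.13e-05) and 1.20-fold higher than in Mock (log2 fold change 0.27, SE 0.062, adjusted p = 0.00153), of which the second lost its call without the 2 libraries of high mitochondrial share (log2 fold change 0.22, adjusted p = 0.0544). At 24 h the libraries were at 37.4, 38.3 and 40.2 CPM in Mock, 40.9, 46.3 and 47.1 in siNT and 49.1, 48.6 and 47.7 in siELMO1. All 9 of these were above all 9 at 0 h. CCND3 rose with poly(I:C) in every transfection, 1.73-fold in Mock (log2 fold change 0.79, SE 0.061, adjusted p = 3.95e-09), 1.30-fold in siNT (log2 fold change 0.38, SE 0.060, adjusted p = 4.60e-05) and 1.81-fold in siELMO1 (log2 fold change 0.85, SE 0.061, adjusted p = 1.94e-09). The log2 fold change without the 2 libraries named was −0.36 against siNT at 0 h and 0.85 with poly(I:C) in siELMO1. It stayed 1.26-fold higher in siELMO1 than in Mock at 24 h (log2 fold change 0.33, SE 0.060, adjusted p = 0.000249), while against siNT the interval of the log2 difference was −0.0036 to 0.23 and the test was not passed (adjusted p = 0.121).

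The E-type cyclins, the partners of CDK2 at the entry to S phase, diverged from each other at 0 h. CCNE2 measured 15.2, 13.9 and 15.2 CPM in Mock, 12.7, 11.6 and 14.2 in siNT and 3.29, 4.02 and 4.87 in siELMO1. Every siELMO1 library was under 5 CPM and every control library over 11 CPM. CCNE2 was 3.18-fold lower than in siNT (log2 fold change −1.67, SE 0.12, adjusted p = 1.47e-09) and 3.65-fold lower than in Mock (log2 fold change −1.87, SE 0.12, adjusted p = 6.26e-10). Without the 2 libraries of high mitochondrial share the log2 fold changes were −1.96 and −2.20. CCNE1 measured 16.1, 14.3 and 15.9 CPM in Mock, 12.4, 11.7 and 10.5 in siNT and 13.9, 13.4 and 14.1 in siELMO1. It was 1.20-fold higher in siELMO1 than in siNT (log2 fold change 0.26, SE 0.094, adjusted p = 0.0208). That call was lost without filtering of low counts (adjusted p = 0.0999), without the 2 libraries of high mitochondrial share (adjusted p = 0.0879) and without replicate 3 of siNT (0.104) or of siELMO1 (0.0551). Against Mock the log2 difference of CCNE1 had an interval of −0.34 to 0.023 and was not called (adjusted p = 0.168), though it was called lower with library totals (0.04).

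With poly(I:C) the 2 E-type cyclins changed in different ways. CCNE2 was 12.2, 12.5 and 12.6 CPM in Mock, 8.37, 9.78 and 9.68 in siNT and 8.65, 9.25 and 7.84 in siELMO1 at 24 h. It rose 2.12-fold in siELMO1 (log2 fold change 1.09, SE 0.12, adjusted p = 6.00e-07, or 1.38 on the log2 scale without the 2 libraries) and fell 1.39-fold in siNT (log2 fold change −0.47, SE 0.11, adjusted p = 0.00218), so that these transfections then overlapped. In Mock its log2 change was −0.24 (adjusted p = 0.0747), not called here but called with DESeq2, limma-voom, library totals, upper-quartile factors or only the Mock libraries in the fit, and without Mock replicate 2 at 0 h, with adjusted p from 0.00749 to 0.0458 over these 6. CCNE1 was 9.28, 12.3 and 10.9 CPM in Mock, 11.9, 13.8 and 12.3 in siNT and 11.8, 11.4 and 11.5 in siELMO1, so the 3 transfections lay close together. It fell 1.43-fold in Mock (log2 fold change −0.51, SE 0.094, adjusted p = 0.000141), and in siNT its log2 change had an interval of −0.049 to 0.32. In siELMO1 it fell 1.20-fold (log2 fold change −0.26, SE 0.094, adjusted p = 0.0272), which was lost without the 2 libraries of high mitochondrial share (adjusted p = 0.112), without filtering (0.133), and without siELMO1 replicate 1 or 3 at 0 h or replicate 2 or 3 at 24 h (0.0512 to 0.0698). At 24 h neither E-type cyclin was called between siELMO1 and siNT, and the intervals of the log2 differences were −0.34 to 0.11 for CCNE2 and −0.31 to 0.055 for CCNE1.

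CDK2, the kinase of the E-type and A-type cyclins, was lower in siELMO1 than in siNT before poly(I:C) and was not called lower after it. It measured 102, 106 and 98.4 CPM in Mock, 91.8, 99.0 and 95.0 in siNT and 56.1, 49.7 and 50.5 in siELMO1 at 0 h. The controls overlapped and siELMO1 lay under both. CDK2 was 1.83-fold lower than in siNT (log2 fold change −0.87, SE 0.060, adjusted p = 7.81e-10) and 1.96-fold lower than in Mock (log2 fold change −0.97, SE 0.060, adjusted p = 3.23e-10). The log2 fold changes were −0.76 and −0.91 without the 2 libraries of high mitochondrial share. At 24 h it was 108, 102 and 113 CPM in Mock, 83.1, 88.5 and 94.7 in siNT and 98.7, 92.4 and 96.4 in siELMO1, so siELMO1 then overlapped siNT. The rise in siELMO1 was 1.84-fold (log2 fold change 0.88, SE 0.060, adjusted p = 1.05e-09, or 0.77 on the log2 scale without those 2 libraries), and the log2 change had intervals of −0.042 to 0.19 in Mock and −0.22 to 0.014 in siNT. Against siNT at 24 h the interval was −0.0057 to 0.23 (adjusted p = 0.129), and without siNT replicate 3 it was called higher (adjusted p = 0.0419). The remaining difference from Mock (log2 fold change −0.17, SE 0.059, adjusted p = 0.028) lost its call without filtering (adjusted p = 0.103) and without Mock replicate 1 (0.0638) or 3 (0.119) or siELMO1 replicate 2 (0.106) or 3 (0.0532).

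CDK4 carried most of the mRNA of the D-type cyclin kinases. At 0 h it was 300.02, 309.8 and 308 CPM in Mock, 316, 329.7 and 325 in siNT and 267, 205 and 227 in siELMO1. All siELMO1 libraries were below the controls, but they spread widely, and the 2 libraries of high mitochondrial share were the lower ones. CDK4 was 1.39-fold lower than in siNT (log2 fold change −0.47, SE 0.073, adjusted p = 2.10e-05) and 1.31-fold lower than in Mock (log2 fold change −0.39, SE 0.073, adjusted p = 0.000231). Without those 2 libraries the log2 differences shrank to −0.27 (adjusted p = 0.00398) and −0.24 (adjusted p = 0.0137). At 24 h it was 246, 266 and 244 CPM in Mock, 274, 292 and 269.9 in siNT and 247, 236 and 216 in siELMO1, which left it lower than in siNT (log2 fold change −0.26, SE 0.073, adjusted p = 0.00681) but not called against Mock (interval −0.26 to 0.031). CDK4 fell with poly(I:C) in Mock (log2 fold change −0.28, SE 0.073, adjusted p = 0.00313) and in siNT (log2 fold change −0.22, SE 0.073, adjusted p = 0.0194), the latter not called without siNT replicate 2 at 0 h or replicate 1 or 3 at 24 h (adjusted p from 0.0565 to 0.067). In siELMO1 its log2 change was 0.00058 with an interval of −0.14 to 0.14. That value rested on the 2 libraries named above, since without them CDK4 fell there as well (log2 fold change −0.20, adjusted p = 0.0258).

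CDK6, the other kinase of the D-type cyclins, was the member that stood higher in siELMO1 than in both controls at both times. It measured 36.9, 39.9 and 39.1 CPM in Mock, 60.0, 55.0 and 54.5 in siNT and 62.6, 69.8 and 64.5 in siELMO1 at 0 h. No group overlapped another. CDK6 was 1.70-fold higher than in Mock (log2 fold change 0.76, SE 0.072, adjusted p = 1.01e-07, or 0.66 on the log2 scale without the 2 libraries named) and 1.16-fold higher than in siNT (log2 fold change 0.21, SE 0.072, adjusted p = 0.015). The call against siNT was lost without the 2 libraries of high mitochondrial share (adjusted p = 0.192), and without siNT replicate 2 (0.0533) or 3 (0.0591) or siELMO1 replicate 2 (0.0733). At 24 h it was 53.1, 45.9 and 45.5 CPM in Mock, 60.2, 59.1 and 54.0 in siNT and 77.9, 75.9 and 67.6 in siELMO1. The siELMO1 libraries were again the highest, 1.28-fold over siNT (log2 fold change 0.35, SE 0.072, adjusted p = 0.000495) and 1.53-fold over Mock (log2 fold change 0.62, SE 0.072, adjusted p = 2.11e-06). With poly(I:C) CDK6 rose in Mock (log2 fold change 0.32, SE 0.072, adjusted p = 0.00106), while the interval of the log2 change was −0.11 to 0.17 in siNT and 0.030 to 0.31 in siELMO1. The siELMO1 change was not called (adjusted p = 0.0526) but passed with DESeq2 (0.0354), limma-voom (0.0377) or no filter (0.0484), and without siELMO1 replicate 2 at 0 h (0.0317) or 3 at 24 h (0.0161).

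CDKN1B, the gene of p27, set siNT apart from the other transfections before poly(I:C). At 0 h it was 48.5, 46.0 and 48.3 CPM in Mock, 94.0, 97.7 and 91.6 in siNT and 48.9, 44.2 and 45.7 in siELMO1. Mock and siELMO1 overlapped, and every siNT library was above 91 CPM. CDKN1B was 2.04-fold lower in siELMO1 than in siNT (log2 fold change −1.03, SE 0.051, adjusted p = 8.31e-12, or −0.94 on the log2 scale without the 2 libraries of high mitochondrial share). Against Mock the log2 difference was −0.039 with an interval of −0.14 to 0.060. The siNT cells held 1.98-fold more than Mock (log2 fold change 0.99, SE 0.050, adjusted p = 4.47e-11). At 24 h it was 46.3, 44.3 and 45.1 CPM in Mock, 55.9, 53.0 and 51.3 in siNT and 38.6, 36.3 and 36.7 in siELMO1, and the 3 transfections no longer overlapped. CDKN1B was then lower in siELMO1 than in siNT (log2 fold change −0.52, SE 0.051, adjusted p = 1.81e-07) and than in Mock (log2 fold change −0.28, SE 0.051, adjusted p = 0.000206). Over the 24 h it fell 1.77-fold in siNT (log2 fold change −0.82, SE 0.050, adjusted p = 2.95e-10) and 1.25-fold in siELMO1 (log2 fold change −0.32, SE 0.051, adjusted p = 4.19e-05, or −0.40 on the log2 scale without those 2 libraries). In Mock the log2 change was −0.074 (adjusted p = 0.218), and it was called lower with library totals (adjusted p = 0.00553) or upper-quartile factors (0.0221).

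CDKN2C, the gene of p18, was the member with the steepest fall against Mock. Among the 6 members with a window it was the one that held the E2F letters shown above. CDK4 was also lower than in Mock at 0 h, and its window did not hold these letters. CCND1, CCNE2 and CDK2, lower than in Mock as well, had no window to search. At 0 h it was 14.2, 14.8 and 15.9 CPM in Mock, 11.7, 12.9 and 12.6 in siNT and 2.98, 2.69 and 2.48 in siELMO1. No siELMO1 library reached 3 CPM and no control library was under 11 CPM. CDKN2C was 5.49-fold lower than in Mock (log2 fold change −2.46, SE 0.11, adjusted p = 3.03e-12) and 4.55-fold lower than in siNT (log2 fold change −2.19, SE 0.11, adjusted p = 7.88e-12). Without the 2 libraries of high mitochondrial share these were −2.36 and −2.05 on the log2 scale. At 24 h it was 7.60, 9.83 and 8.48 CPM in Mock, 6.12, 5.67 and 6.14 in siNT and 4.17, 4.52 and 4.00 in siELMO1. The order of the transfections was kept and the gaps were smaller, at −1.03 (SE 0.10, adjusted p = 3.50e-07) against Mock and −0.50 (SE 0.10, adjusted p = 0.000629) against siNT on the log2 scale. CDKN2C fell with poly(I:C) 1.73-fold in Mock (log2 fold change −0.79, SE 0.10, adjusted p = 2.13e-06) and 2.07-fold in siNT (log2 fold change −1.05, SE 0.10, adjusted p = 1.11e-07), and rose 1.55-fold in siELMO1 (log2 fold change 0.64, SE 0.11, adjusted p = 7.30e-05, or 0.50 on the log2 scale without those 2 libraries).

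The order of the 6 conditions differed between members. For CCND3 it ran from siELMO1 at 24 h through siNT and Mock at 24 h to siNT, siELMO1 and Mock at 0 h, with each apart from the next. For CDKN2C it ran from Mock and siNT at 0 h through Mock, siNT and siELMO1 at 24 h to siELMO1 at 0 h, also with no overlap between neighbours. CDK6 was highest in siELMO1 at 24 h and 0 h, which overlapped, then in siNT at 24 h and 0 h, which overlapped too, and lowest in Mock at 24 h and 0 h, which did not. For CDK2 the libraries of 5 conditions overlapped from neighbour to neighbour, with means from 88.8 ± 5.82 to 108 ± 5.65 CPM (SD, n = 3), and siELMO1 at 0 h stood apart at 52.1 ± 3.48 CPM. For CDKN1B siNT at 0 h and 24 h came first and siELMO1 at 24 h last, and Mock at 0 h, siELMO1 at 0 h and Mock at 24 h overlapped between them.

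**Figure D2:**
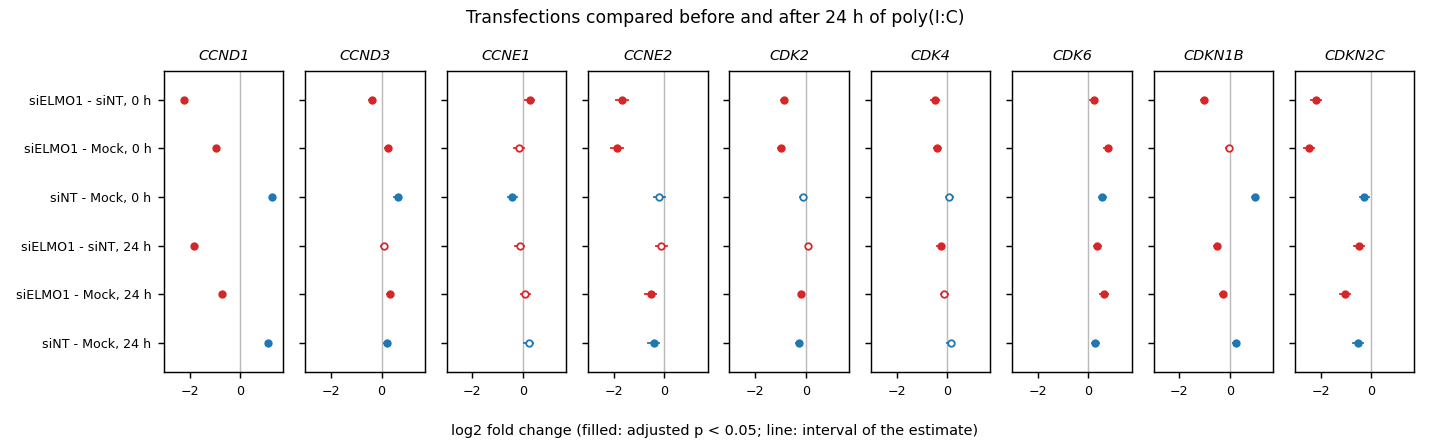
Log2 fold change (horizontal axis) of each tested member between transfections at 0 h and at 24 h; points are edgeR estimates from 3 libraries against 3, filled where the adjusted p was under 0.05, and lines are 95% intervals, red for siELMO1 and blue for siNT against Mock. CCND1 is left of 0 in all 4 siELMO1 comparisons and CDK6 right of 0 in all 4, whereas CDK2 and CCNE2 are far left of 0 at 0 h and near it at 24 h against siNT.

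At 24 h fewer members separated siELMO1 from siNT. The part of the cell death in siNT, named above, in this change was not tested. Of the 9, 4 were lower (CCND1, CDK4, CDKN1B and CDKN2C) and CDK6 was higher, where 26.5% and 26.0% of all genes were called. CCND3, CCNE1, CCNE2 and CDK2 did not pass the test. Against Mock 5 were lower (CCND1, CCNE2, CDK2, CDKN1B and CDKN2C) and CCND3 and CDK6 higher, with 22.0% and 21.6% of all genes. The median log2 fold change of the 9 was −0.13 against siNT and −0.17 against Mock, against −0.0061 and −0.0083 over all genes.

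The non-targeting siRNA alone changed several members relative to the transfection reagent. At 0 h CCND1, CCND3, CDK6 and CDKN1B were higher in siNT than in Mock and CCNE1 and CDKN2C lower, 4 and 2 of 9 where 27.6% and 24.0% of all genes were called. CCND3 rose 1.55-fold (log2 fold change 0.63, SE 0.061, adjusted p = 1.50e-07) and CDK6 1.46-fold (log2 fold change 0.55, SE 0.072, adjusted p = 5.72e-06), while CCNE1 fell 1.34-fold (log2 fold change −0.42, SE 0.093, adjusted p = 0.000979). The lower CDKN2C (log2 fold change −0.27, SE 0.10, adjusted p = 0.0287) was not called without filtering (adjusted p = 0.0784), and without Mock replicate 3 (0.0713) or siNT replicate 1 (0.107) or 3 (0.0528). The interval of the log2 difference was −0.062 to 0.22 for CDK4, −0.22 to 0.012 for CDK2 and −0.42 to 0.024 for CCNE2, none of them called. With only the 6 libraries of Mock and siNT at 0 h in the fit, CDK2 (adjusted p = 0.0102) and CCNE2 (0.0327) were called lower, and CDK2 also with library totals (0.0479).

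At 24 h the same 4 members were higher in siNT than in Mock, with smaller differences for each, and CCNE2, CDK2 and CDKN2C were lower. Over all genes 25.2% were called higher and 24.9% lower. CCND1 remained 2.14-fold higher (log2 fold change 1.10, SE 0.044, adjusted p = 8.72e-12), but CDKN1B only 1.18-fold (log2 fold change 0.24, SE 0.051, adjusted p = 0.000738) and CDK6 1.20-fold (log2 fold change 0.26, SE 0.072, adjusted p = 0.00586). CDKN2C was 1.45-fold lower (log2 fold change −0.53, SE 0.10, adjusted p = 0.000308), CCNE2 1.34-fold (log2 fold change −0.43, SE 0.12, adjusted p = 0.0051) and CDK2 1.21-fold (log2 fold change −0.28, SE 0.059, adjusted p = 0.000794). CCNE1 did not pass (log2 fold change 0.22, adjusted p = 0.0596), though it was called with library totals (0.0366) and without Mock replicate 2 (0.0114) or siNT replicate 1 (0.049).

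The response to poly(I:C) depended on the transfection for most members, and for CCNE2 and CDKN2C it went in opposite directions. Of the 9, 5 rose and 2 fell in siELMO1, 3 rose and 3 fell in Mock, and 1 rose and 4 fell in siNT. The same shares over all genes were 28.0% and 26.9% in siELMO1, 30.7% and 29.6% in Mock, and 28.6% and 25.2% in siNT. With library totals the split of all genes in Mock moved from 4655 higher of 9144 called to 3555 of 9376, and the median of all genes by over 0.1 on the log2 scale, from 0.0066 to −0.115. In siELMO1 library totals moved the median of all genes from −4.0e-05 to −0.062, with 3596 of 8390 called genes higher in place of 4249. The members' changes in Mock and in siELMO1 are to be read relative to these shifts.

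**Figure D3:**
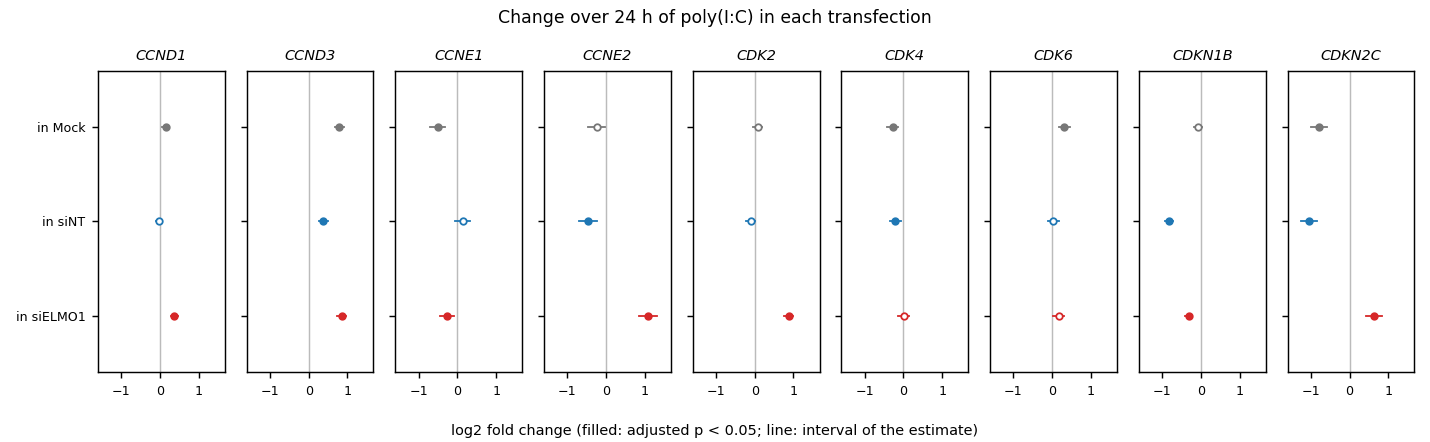
Log2 fold change over 24 h of poly(I:C) (horizontal axis) of each tested member in Mock, siNT and siELMO1; points are edgeR estimates from 3 libraries against 3, filled where the adjusted p was under 0.05, and lines are 95% intervals. CCNE2 and CDKN2C are right of 0 in siELMO1 and left of it in Mock and siNT, CDK2 is called only in siELMO1 of the 3 transfections, and CCND3 is right of 0 in all.

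The difference between responses was tested as an interaction. The change in siELMO1 exceeded that in siNT for 6 members and was below it for CCNE1, where 16.7% and 17.8% of all genes were called. The excess was 1.69 (SE 0.15, adjusted p = 9.56e-08) for CDKN2C, 1.56 (SE 0.17, adjusted p = 1.17e-06) for CCNE2 and 0.98 (SE 0.084, adjusted p = 7.76e-08) for CDK2 on the log2 scale. The lower value of CCNE1 (−0.39, SE 0.13, adjusted p = 0.0288) was not called without filtering (0.138), without both libraries of high mitochondrial share (0.102), or without replicate 3 of siNT or siELMO1 at 0 h or replicate 2 of either at 24 h (0.0547 to 0.0837). Relative to Mock the excess was 1.43, 1.33 and 0.81 for the same genes, with adjusted p of 1.30e-06, 1.18e-05 and 1.55e-06. In that comparison CCND1 was also called higher and CDKN1B lower, 4 and 1 of 9 where 13.8% and 14.6% of all genes were called. With library totals 2551 of the 4225 genes called there were higher, against 2090 of 4299. CDKN1B (−0.24, adjusted p = 0.0168) lost its call with library totals (0.0924), without filtering (0.155) and without Mock replicate 2 at 0 h (0.0861) or 1 at 24 h (0.0711). CDK4 was called in neither of these differences (0.22 and 0.28), but without siELMO1 replicate 1 at 0 h in both (adjusted p = 0.0038 and 0.00118), and relative to Mock also without Mock replicate 2 (0.0396) or siELMO1 replicate 3 (0.0272) at 24 h, with DESeq2 (0.0147), limma-voom (0.044) or library totals (0.0347). CDKN2C, CCNE2 and CDK2 started lowest in siELMO1 at 0 h, so a rise there and a smaller gap at 24 h are the same measurements. Without the 2 libraries of high mitochondrial share the excess over siNT was 1.58 for CDKN2C, 1.87 for CCNE2 and 0.90 for CDK2.

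Between the control transfections, siNT minus Mock, CCNE1 was called higher and CCND1, CCND3, CDK6 and CDKN1B lower, where 15.0% and 16.0% of all genes were called. With library totals 3072 of the 4741 genes called there were higher, against 2268 of 4696. CDKN1B differed most (−0.75, SE 0.071, adjusted p = 5.27e-07), and it fell in siNT from a level above that of Mock. The calls of CCND1 (adjusted p = 0.0416) and CDK6 (adjusted p = 0.0411) lay near the threshold. Both were lost with library totals, upper-quartile factors, filterByExpr or no filter, which left 3 members called. The call of CCND1 was also lost without any 1 of 10 of the 12 libraries compared, and that of CDK6 without any 1 of 8. Leaving out each library left 3 to 5 members called.

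Within families the balance shifted with the knockdown. CCND1 made up 97.0% ± 0.0610 (SD, n = 3) of D-type cyclin mRNA per length in siNT at 0 h and 90.0% ± 0.341 in siELMO1, where CCND1 was lower by more than CCND3 was. The share of CCND3 was 4.50% ± 0.301 in Mock, 3.00% ± 0.0610 in siNT and 10.0% ± 0.340 in siELMO1 at 0 h. At 24 h it was 6.97% ± 0.212, 3.85% ± 0.478 and 13.6% ± 0.141 in the same order. The siELMO1 libraries had the highest shares at each time, with no overlap. With the length of the longest transcript the shares in siELMO1 were 8.41% and 11.4%.

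**Figure D4:**
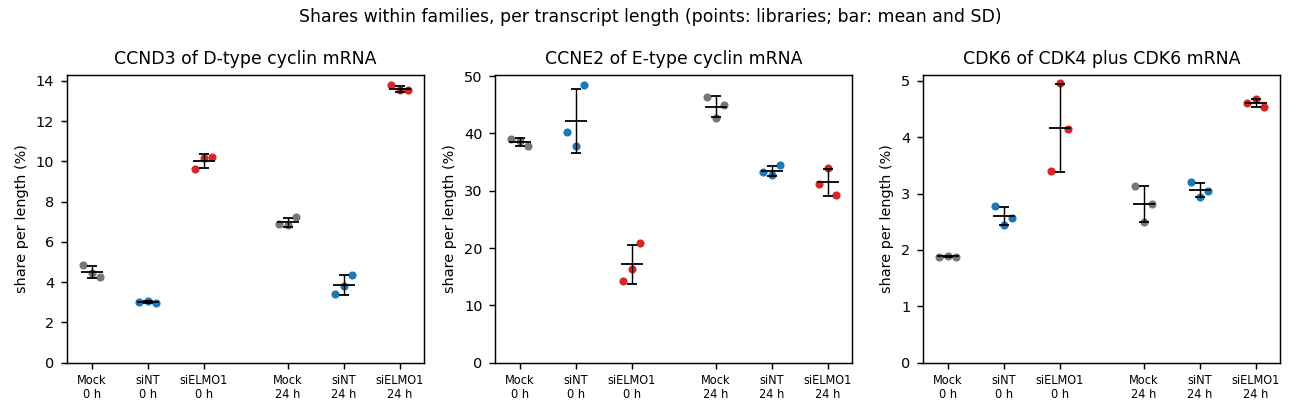
Share (vertical axis, percent, from 0) of CCND3 in D-type cyclin mRNA, of CCNE2 in E-type cyclin mRNA and of CDK6 in the sum of CDK4 and CDK6, per transcript length, in each of 18 libraries; points are libraries, bars means and whiskers SD of 3. In siELMO1 at 0 h CCND3 is near 10% where siNT is near 3%, and CCNE2 is at 14.2% to 20.8% where the controls are at 37.8% to 48.6%.

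CCNE1 was the larger part of E-type cyclin mRNA in every condition by mean. CCNE2 had 38.5% ± 0.671 of it in Mock, 42.2% ± 5.64 in siNT and 17.1% ± 3.39 in siELMO1 at 0 h. At 24 h the shares were 44.7% ± 1.85, 33.5% ± 0.854 and 31.5% ± 2.37, so siELMO1 and siNT then overlapped. CDK6 was a small part of the D-type cyclin kinases, with 1.88% ± 0.0136 of CDK4 plus CDK6 in Mock, 2.60% ± 0.162 in siNT and 4.17% ± 0.783 in siELMO1 at 0 h. The ratio of CCND1 to CDK4 per length was 1.34 ± 0.0353 in Mock, 3.09 ± 0.0692 in siNT and 0.934 ± 0.0899 in siELMO1 at 0 h. The ratio of CDKN1B to CDK2 was 0.389 ± 0.0352, 0.817 ± 0.0518 and 0.728 ± 0.0294 in the same order, so siELMO1 was nearer to siNT than to Mock, with both genes lower than in siNT. At 24 h that ratio was 0.346 ± 0.00913, 0.505 ± 0.0689 and 0.317 ± 0.00517. These are ratios of mRNA and say nothing of the proteins.

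Most members were read from 1 dominant transcript. In CCND1 it took 99.9% of the gene's counts, and in CDK2 and in CDK4 92.9%. The CDKN2C transcript that starts after the stretch shown above took 81.2% of that gene's counts over all libraries. Its share was 79.5% or more in each siELMO1 library at 0 h, but ran from 60.1% to 93.7% in siNT at 24 h. For CDKN1B the start shown above took 99.4%. CCNE2 was split between a transcript with 52.3% and another with 44.1%, and the split varied between libraries of a group, from 50.4% to 81.25% for the former in siELMO1 at 0 h. CDK6 had 88.3% from its upstream start and 11.6% from a start further into the gene, whose share ran from 0.434% to 37.8% among the Mock libraries at 24 h. Shares of this kind are estimates by StringTie and were not tested.

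By gene annotation (GENCODE version 44, GRCh38), 9 of the 10 members overlap another gene on the opposite strand, and CCNE1 does not. CCND1 (chr11:69641156-69654474, plus) overlaps LTO1, CDK2 (chr12:55966781-55972789, plus) PMEL, and CDK4 (chr12:57747727-57756013, minus) TSPAN31 and MARCHF9. CCNE2 (chr8:94879770-94896678, minus) overlaps INTS8 and NDUFAF6, CDK6 (chr7:92604921-92836573, minus) CDK6-AS1, and CDKN1B (chr12:12685498-12722369, plus) GPR19. CCND3 (chr6:41934934-42050357, minus) and CDKN2C (chr1:50960745-50974634, plus) each overlap 1 gene that has only an identifier, and CCNE1 is at chr19:29811991-29824312 (plus). The library kit keeps the strand, but whether the counting used it is not given in the sources used here, and reads from such overlaps may have been shared.

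Genes around the members in the pathway were counted from lists written with earlier results of these data known. Their counts are to be read against the genes called over the whole table, 31.3% higher and 31.3% lower against siNT at 0 h, 27.9% and 22.4% against Mock at 0 h, 26.0% and 26.5% against siNT at 24 h, and 21.6% and 22.0% against Mock at 24 h. Cyclins of later phases and CDK1, which acts at mitosis, were lower in siELMO1 than in siNT at 0 h in 5 of 5 cases, with a median log2 fold change of −2.11, and also lower than in Mock in 5 of 5. At 24 h 1 was lower and 1 higher against siNT, and 4 were lower against Mock. All 5 rose with poly(I:C) in siELMO1 and all 5 fell in Mock and in siNT. Over all genes 28.0% were called higher in siELMO1, 29.6% lower in Mock and 25.2% lower in siNT. In siNT CDK1 was at 143 ± 2.66 CPM and in siELMO1 at 23.3 ± 1.04 CPM at 0 h (log2 fold change −2.61, SE 0.070, adjusted p = 1.23e-14), and 65.2 ± 3.25 and 57.0 ± 6.50 CPM at 24 h (log2 fold change −0.19, SE 0.066, adjusted p = 0.0209). Of the 8 genes of the retinoblastoma and E2F families, 6 were lower and 1 higher than in siNT at 0 h, but 3 were lower and 1 higher than in Mock, with median log2 fold changes of −0.27 and −0.069. E2F2, an activating E2F, went from 13.0 ± 0.188 CPM in siNT to 1.79 ± 0.324 CPM in siELMO1 (log2 fold change −2.85, SE 0.15, adjusted p = 1.55e-11). At 24 h 3 were lower and 1 higher against siNT, and 4 lower and 1 higher against Mock. RBL2, the pocket protein p130 known from resting cells, was higher in siELMO1 than in siNT at 24 h (log2 fold change 0.46, SE 0.047, adjusted p = 3.16e-07).

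Of 8 genes that act in the turnover of cyclin D, cyclin E and p27, 5 were lower and 2 higher in siELMO1 than in siNT at 0 h, and 5 were lower and 1 higher than in Mock. At 24 h 1 was lower and 1 higher than in siNT, a smaller share each way than among all genes, and 2 were lower and 1 higher than in Mock. SKP2, the F-box protein that marks p27 for degradation, was 42.2 ± 1.55 CPM in Mock, 53.1 ± 1.34 in siNT and 9.87 ± 0.421 in siELMO1 at 0 h (log2 fold change −2.43, SE 0.071, adjusted p = 2.02e-14 against siNT). It was still lower at 24 h (log2 fold change −1.04, SE 0.068, adjusted p = 1.48e-09). Of 5 genes that activate the kinases or fold them, 3 were lower and 1 higher than in siNT at 0 h, and 1 was lower and 1 higher than in Mock. At 24 h 2 were lower and 2 higher than in siNT, and 2 lower and 1 higher than in Mock. CDC37, the chaperone partner that loads CDK4 onto HSP90, was higher than in siNT at 0 h (log2 fold change 0.86, SE 0.053, adjusted p = 1.66e-10), and CDK7, the CDK-activating kinase, was lower at 24 h (log2 fold change −0.34, SE 0.038, adjusted p = 1.18e-06). Of 5 other CDK inhibitor genes 2 passed the filter on low counts, and both were lower than in siNT at each time. Both were higher in siNT than in Mock at 0 h, and against Mock siELMO1 had 1 higher and 1 lower at 0 h and 2 lower at 24 h. CDKN1A, the gene of p21, was 175 ± 2.11 CPM in Mock, 334 ± 8.96 in siNT and 194 ± 9.80 in siELMO1 at 0 h (log2 fold change −0.78, SE 0.042, adjusted p = 2.43e-11 against siNT), and it was higher than in Mock by less (log2 fold change 0.16, SE 0.042, adjusted p = 0.00457). It was lower than in siNT at 24 h (log2 fold change −0.83, SE 0.042, adjusted p = 7.13e-11).

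Among 6 tested genes of other cyclin-CDK pairs, 3 were higher and 2 lower than in siNT at 0 h and 2 higher and 1 lower at 24 h. Against Mock 3 were higher and 0 lower at 0 h, and 2 higher and 1 lower at 24 h. CDK16 was 86.1 ± 4.63 CPM in Mock, 32.0 ± 1.95 in siNT and 81.8 ± 1.72 in siELMO1 at 0 h (log2 fold change 1.35, SE 0.058, adjusted p = 1.38e-12 against siNT), so siELMO1 lay near Mock and siNT below both. CDK14, a kinase of the Wnt co-receptor, was 16.8 ± 1.41 CPM in Mock, 6.08 ± 0.943 in siNT and 16.1 ± 1.18 in siELMO1 at 24 h (log2 fold change 1.40, SE 0.12, adjusted p = 2.97e-08), with the same arrangement. Without the 2 libraries of high mitochondrial share the log2 fold change against siNT at 0 h was −2.54 for CDK1, −2.70 for E2F2, −2.35 for SKP2, 0.74 for CDC37, −0.71 for CDKN1A and 1.36 for CDK16, each still called. In that fit the number of genes called against siNT at 0 h differed for the retinoblastoma and E2F families and the other cyclin-CDK genes. Against Mock at 0 h it differed for these lists, for turnover and for activation or folding. The median log2 fold change against Mock there was −0.16 for turnover in place of −0.14, and −0.080 for the retinoblastoma and E2F families in place of −0.069. For activation or folding it was −0.17 in place of −0.080, and for the other cyclin-CDK genes 0.045 in place of 0.22.

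Over the 18 libraries the genes whose log2 level followed each member most closely are given as a description, since the libraries share conditions and depth. For CDKN2C they were DEPDC1 (r = 0.989), NEK2 (r = 0.988) and TMEM106C (r = 0.986). For CCNE2 they were MCM10 (r = 0.985), ATAD2 (r = 0.984) and NCAPH (r = 0.983). For CDK2 they were FANCI (r = 0.979), DTL (r = 0.978) and CKAP2L (r = 0.977). Several of these are known from DNA replication, its repair or mitosis, such as MCM10, DTL and NEK2. CCND1 was followed most closely by ZDHHC23 (r = 0.982), PSME3 (r = 0.979) and NGLY1 (r = 0.979). CDKN1B was followed by NADK2 (r = 0.973), METAP1 (r = 0.971) and CARD19 (r = 0.970). CCND3, which rose in every transfection with poly(I:C), was followed by CD69 (r = 0.985), LINC01139 (r = 0.967) and C3AR1 (r = 0.964), among them the activation antigen CD69. For CDK4 they were TRIM28 (r = 0.967), EXOSC5 (r = 0.959) and TPI1 (r = 0.955). For CDK6 they were RAB5B (r = 0.958), BLCAP (r = 0.957) and P3H2 (r = 0.952). For CCNE1, with the weakest likeness of the 9, they were LINC02777 (r = 0.902), MAPKAP1 (r = 0.884) and PAGR1 (r = 0.874).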

How the data were processed

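RNA of EA.hy926 cells, 3 libraries for each of 6 conditions, was sequenced by the authors as 100 bp paired ends after a stranded mRNA preparation. Per the labels and the study's methods, reads were aligned with STAR to GRCh38 and assigned to GENCODE genes and transcripts with StringTie, and the authors deposited estimated counts made with StringTie's prepDE script, which derives them from coverage. Versions and the read length given to that script are not given in the sources used here. The counts were whole numbers and were used as deposited. Library totals were 40374756 to 73850946 counts.

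Genes with a total of at least 100 and at least 1 CPM in some library were kept (15167 of 62754). edgeR 4.0.16 (R 4.3.3) with TMM factors of 0.958 to 1.06 and the quasi-likelihood test was fitted to all 18 libraries with 1 mean per condition, for 12 comparisons. P-values were adjusted by Benjamini-Hochberg over all genes kept. Intervals, called 95%, come from the estimate and its SE with the quantile of a normal distribution. With few residual degrees of freedom they are somewhat narrower than the test implies. The biological coefficient of variation was 12.2%. The step was also run on simulated counts, and the outcome is not given here. An exact permutation test of 3 libraries against 3 cannot go below 0.1 and was not used. The pattern of a gene was compared with a member by Pearson's r of log2 CPM over 18 libraries, with 0.5 added to each count before scaling. Only genes of at least 1 CPM on average were compared. TPM was computed from the deposited transcript counts, each divided by the annotated transcript length, and summed over a gene.

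The members were named by symbol, as were, in the pathway lists, the gene of each list with the smallest adjusted p between siELMO1 and siNT at each time, and the 3 genes most like each member. Members and lists were chosen with earlier results of these data known. Alternatives were DESeq2 1.42.0, limma-voom (limma 3.58.1), library totals, upper-quartile factors, filterByExpr, no filter, a replicate block, fits of only the groups compared and leaving out each library. Leaving out the 2 libraries of high mitochondrial share together was chosen after seeing the data.

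Same-numbered libraries deviated together (r over 0.1) in 13 of 45 pairs over 9644 genes, with a median r of 0.027. All 3 pairs passed between Mock and siNT at 24 h, with a lowest r of 0.205, and in no other compared pair of conditions. There the block changed the call of no member.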

Additional observations from a re-analysis of the deposited data

Results flagged for a closer look

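The change over 24 h of poly(I:C) differed between transfections, by the interaction test of edgeR with Benjamini-Hochberg adjustment, for the following members. The values share libraries, since each transfection stands in 2 of the 3 sets. In the sets with siNT, the part of the death of siNT cells under poly(I:C) was not tested.

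In siELMO1 minus siNT, the difference of log2 changes was 1.69 for CDKN2C, 1.56 for CCNE2, 0.98 for CDK2, 0.51 for CDKN1B, 0.48 for CCND3 and 0.39 for CCND1. It was −0.39 for CCNE1.

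In siELMO1 minus Mock, it was 1.43 for CDKN2C, 1.33 for CCNE2, 0.81 for CDK2 and 0.22 for CCND1. It was −0.24 for CDKN1B.

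In siNT minus Mock, it was 0.65 for CCNE1. It was −0.75 for CDKN1B, −0.42 for CCND3, −0.29 for CDK6 and −0.17 for CCND1.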

How the results depend on the processing

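Of 108 values of members over the 12 comparisons 76 were called, and 64 of these kept call and direction in every alternative run. Leaving out the 2 libraries of high mitochondrial share turned the change of CDK4 with poly(I:C) in siELMO1 from 0.00058 to −0.20 on the log2 scale. It left 7, 6, 7, 6 and 5 members called in the 5 comparisons it touched. For the difference of responses siNT minus Mock, 5 called members became 3 with library totals, upper-quartile factors, filterByExpr or no filter. The cause was not tested. Leaving out each library gave 7 to 9 members called for siELMO1 against siNT at 0 h and 5 to 6 at 24 h, 7 and 6 to 7 against Mock, 5 to 6 and 7 to 8 for siNT against Mock, 5 to 7, 4 to 5 and 6 to 8 with poly(I:C) in Mock, siNT and siELMO1, and 6 to 8, 4 to 6 and 3 to 5 for the differences siELMO1 minus siNT, siELMO1 minus Mock and siNT minus Mock. The replicate block changed 1 of 108 calls, CDK6 with poly(I:C) in siELMO1 (adjusted p = 0.038), between conditions whose libraries share only a number. With no filter the genes called in siELMO1 minus Mock went from 4299, 2090 of them higher, to 3237, 1915 of them higher, and without the 2 libraries named to 2998, 1852 of them higher. Depth limits CCND2, which was under the filter on low counts and without the filter was called in none of the 12 comparisons (lowest adjusted p = 0.125).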
